A study of Mus musculus with 12 samples.

Results

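AMPA and NMDA receptors are the ion channels that carry most fast excitatory signals between neurons, and 9 genes of their subunits were followed here: Gria1, Gria2, Gria3 and Gria4 for AMPA receptors, and Grin1, Grin2a, Grin2b, Grin2d and Grin3a for NMDA receptors. A gene was measured through array probe sets that name it and no other gene. This gave 10 probe sets for 8 of the 9 genes, out of 22180 genes with such a probe set in the series. Grin1, which encodes the subunit common to NMDA receptors, was matched by no such probe set and is not analysed here. The cells were neurons in primary culture, taken from embryonic brain of mice of the outbred ICR (CD-1) stock and grown in Neurobasal medium with B27 supplement. At day in vitro 3 they received amitriptyline (5 µM), imipramine (5 µM), citalopram (10 µM), duloxetine (0.1 µM) or mirtazapine (50 µM), and all cultures were harvested 48 h later, at day in vitro 5. Each of these 5 drug groups and the control group had 2 Affymetrix arrays, 12 in all. The labels used here do not state what the control cultures received, the brain region or the embryos' age.

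AMPA receptors are assembled from 4 kinds of subunit, GluA1 to GluA4, the products of Gria1 to Gria4. GluA2 sets the calcium permeability of the channel: receptors that hold its edited form pass little calcium. NMDA receptors combine GluN1 with GluN2 subunits, which bind glutamate, or with GluN3 subunits, which bind glycine. In the forebrain GluN2B is abundant before birth, GluN2A rises after birth, and GluN2D is found mainly in early life and in interneurons. GluN3A, the product of Grin3a, is most abundant in the immature brain and lowers the calcium permeability and magnesium block of receptors that contain it. Amitriptyline and imipramine are tricyclic antidepressants, citalopram is a selective serotonin reuptake inhibitor, duloxetine inhibits serotonin and noradrenaline reuptake, and mirtazapine is a tetracyclic antagonist of adrenergic, serotonin and histamine receptors.

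Levels are RMA values on a log2 scale, on which 1 unit is a doubling; they can be set against each other between arrays for the same gene, but not between genes. All 8 measured genes lay above the filter on dim genes (mean log2 of 5.72 or more), as did 17467 genes in all. A gene was called changed at a Benjamini-Hochberg adjusted p under 0.05 in limma, over those 17467 genes. Nothing in the labels tells whether the 2 arrays of a group stem from separate cultures or embryos, so the p-values rest on a spread between samples that may be technical. All 5 comparisons with control use the same 2 control arrays. All 18 pan-neuronal markers listed passed the filter, with a mean log2 of 11.1 to 11.3 on every array. Of 118 markers of neurons, glia, dividing, immune and vascular cells, 111 passed it, a cut on level that is no background level. Levels varied widely within the glial and immune lists. Astrocyte markers ran from a mean log2 of 5.89 (S100b) to 11.25 (Aldoc). Oligodendrocyte lineage markers ran from 5.34 (Mag, below the cut) to 10.3 (Olig1), and microglia markers from 6.13 (P2ry12) to 8.52 (Cd68). Duloxetine replicate 2 and mirtazapine replicate 2 stood apart from the other 10 arrays on the first principal component (32.6 and 36.4, against 3.94 or less).

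Grin3a was the NMDA subunit gene that fell. On the 2 control arrays its log2 level was 9.35 and 8.85. It was 7.92 and 7.60 under mirtazapine, 8.40 and 8.32 under amitriptyline, 8.62 and 8.58 under imipramine, 8.65 and 8.79 under citalopram, and 8.87 and 8.68 under duloxetine. Both arrays of mirtazapine, amitriptyline, imipramine and citalopram lay below both control arrays, while duloxetine replicate 1 lay just above control replicate 2. Of the 10 drug arrays, 9 were thus lower than both controls, a pattern that 9.28% of all tested genes also had. For a single drug the position is common. Both arrays lay below both controls for 30.6% of all tested genes under mirtazapine, 24.2% under amitriptyline, 19.1% under imipramine and 22.1% under citalopram. The control pair differed by more than any other pair of Grin3a values (SD 0.35, n = 2). In descending order the group means ran control, duloxetine, citalopram, imipramine, amitriptyline, mirtazapine. Control overlapped with duloxetine, and duloxetine with citalopram. Below that there was no overlap between citalopram and imipramine, imipramine and amitriptyline, or amitriptyline and mirtazapine. The share of all tested genes without overlap is given here only against control. This separation between drugs therefore cannot be taken as particular to Grin3a. The order was read from these same values, with 2 arrays each, so it does not establish a gradation between drugs. Of these neighbours only the 2 tricyclics were compared in a test, without a call (unadjusted p = 0.173 in limma).

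**Figure D1:**
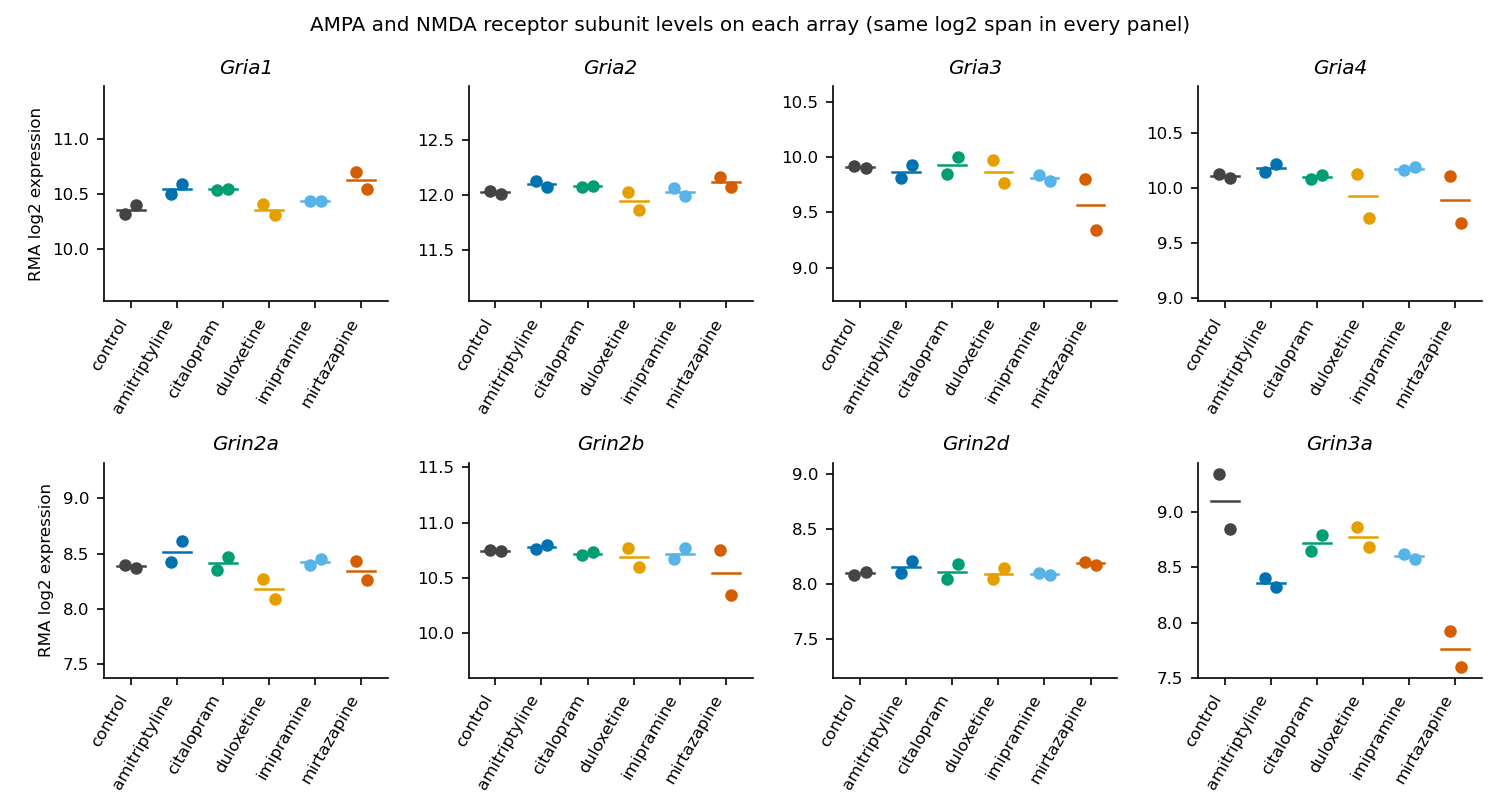
RMA log2 expression of the 8 measured subunit genes (y axis, a span of the same log2 size in every panel) in the 6 groups (x axis). Each point is 1 array and each bar the mean of the 2 arrays of a group. Grin3a spreads from 7.60 to 9.35 over the 12 arrays, whereas Grin2d stays between 8.04 and 8.21.

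Under mirtazapine Grin3a fell from a mean log2 of 9.10 ± 0.35 (SD, n = 2) to 7.76 ± 0.23 (n = 2). The log2 difference was −1.34 ± 0.16 (SE; 95% interval −1.71 to −0.98), a 2.53-fold lower level, with an adjusted p of 0.0107 in limma. It was 1 of the 8 measured subunit genes called under this drug, against 1.74% of all genes tested; at an unadjusted p under 0.05 there were 3 (Grin3a, Gria1 and Gria3), against 3916 genes or 22.4% in all. Among the 257 genes called lower under mirtazapine it ranked 10 by size. The call was lost without control replicate 1 (−1.09, adjusted p = 0.112, where 0 genes of any kind were called), without mirtazapine replicate 2 (−1.18, adjusted p = 0.0758) and in a fit to the 4 arrays of these groups alone (adjusted p = 0.0656). Without both arrays that stand apart Grin3a passed (−1.18, adjusted p = 0.021).

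Under the other 4 drugs Grin3a had negative differences that did not pass. They were −0.74 ± 0.16 (SE) for amitriptyline (adjusted p = 0.155), −0.50 ± 0.16 for imipramine (adjusted p = 0.626), −0.38 ± 0.16 for citalopram (adjusted p of 1) and −0.33 ± 0.16 for duloxetine (adjusted p = 0.506). Concentrations differed between drugs except for the 2 tricyclics. None of the 8 subunit genes was called by limma under these 4 drugs; at an unadjusted p under 0.05 the count was 1 of 8 (Grin3a) for amitriptyline, citalopram and imipramine and 0 of 8 for duloxetine. Over all genes, 0% were called for amitriptyline, 0% for citalopram, 0% for duloxetine and 0.0286% for imipramine (1073, 776, 1754 and 797 genes at an unadjusted p under 0.05). The unadjusted 95% interval of Grin3a lay below 0 for amitriptyline (−1.11 to −0.38), imipramine (−0.87 to −0.14) and citalopram (−0.75 to −0.02), and reached 0.04 for duloxetine. These values rested much on control replicate 1: without it they were −0.49 for amitriptyline, −0.25 for imipramine, −0.13 for citalopram and −0.075 for duloxetine. Array weights brought amitriptyline past the threshold (adjusted p = 0.0304 in limma). With 2 arrays a group, both arrays of each group got the same weight (1.465 for amitriptyline, 0.437 for mirtazapine, 0.323 for duloxetine). These weights thus set groups apart and could not weight down a single deviating array.

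The mean of the 5 drugs was lower than control by 0.66 on the log2 scale for Grin3a (−0.66 ± 0.13 SE, adjusted p = 0.0899), and 0 of the 8 subunit genes were called by limma in that comparison (1 at an unadjusted p under 0.05), against 0.0515% of all genes. Leaving out control replicate 2 or duloxetine replicate 1 brought Grin3a past the threshold there (−0.91, adjusted p = 0.046, and −0.68, adjusted p = 0.0391), and without control replicate 1 it was −0.41 (adjusted p = 0.999). An F test for any difference among the 6 groups gave Grin3a the lowest p of the 8 genes (F = 15.7, adjusted p = 0.0672 in limma), without a call. That test called 0.103% of all genes, and the other 7 subunit genes had adjusted p between 0.498 and 0.925.

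**Figure D2:**
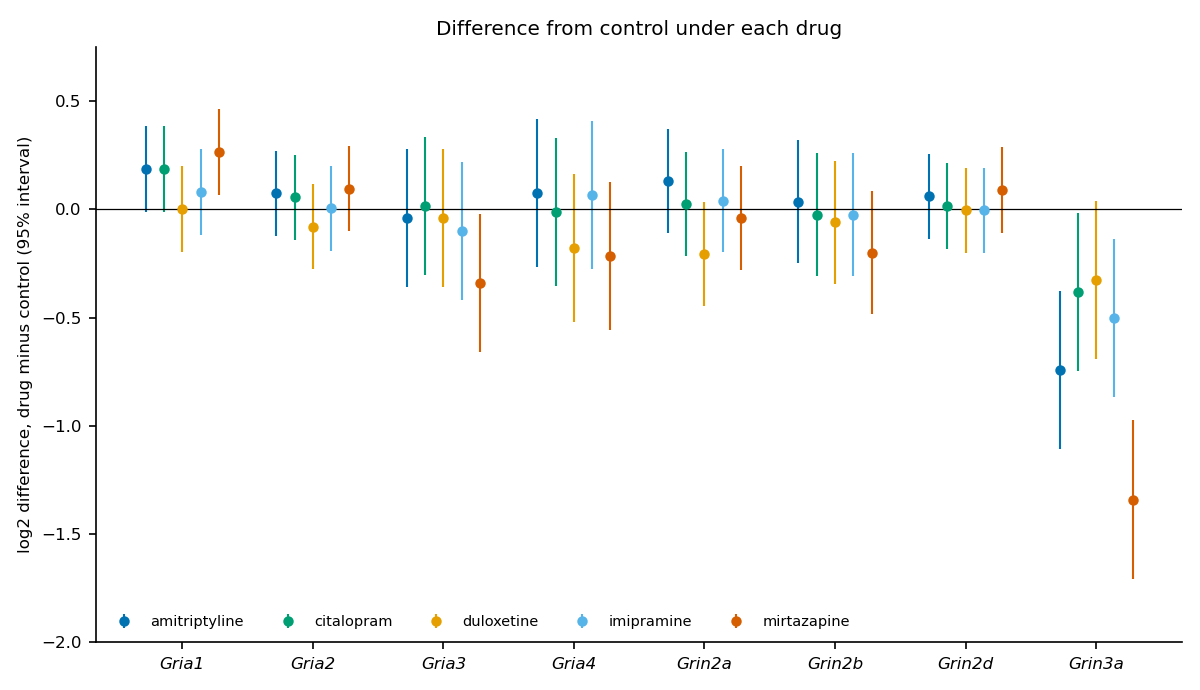
Log2 difference of each drug group from control (y axis) for the 8 subunit genes (x axis), with the 95% interval of the limma fit as vertical lines and 1 colour per drug. For Grin3a all 5 points lie below 0, from −0.33 to −1.34, while those of the other 7 genes lie between −0.34 and 0.27.

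The other 7 genes moved little. Their 35 differences from control ranged from −0.34 to 0.27, at most 1.27-fold, and 30 of them were smaller than 0.2. The lowest adjusted p among them was 0.145. Their unadjusted 95% intervals reached between 0.20 and 0.34 log2 units to either side. A call needed more than that: Gria1 (0.27) and Gria3 (−0.34) under mirtazapine had intervals clear of 0 and did not pass. With 2 arrays per group, changes of this size are therefore not excluded. Over all 8 genes the median difference was −0.12 under mirtazapine (5 negative; median of all tested genes −0.04) and −0.07 under duloxetine (7 negative; all genes −0.015). It was 0.07 under amitriptyline, with 6 positive, 0.015 under citalopram, with 5 positive, and 0 under imipramine, with 4 positive.

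Gria1, encoding the GluA1 subunit that is added to synapses in several forms of plasticity, was the AMPA subunit gene with the lowest p. Its log2 levels were 10.32 and 10.40 in control, 10.70 and 10.55 under mirtazapine, 10.50 and 10.59 under amitriptyline, and 10.54 and 10.55 under citalopram. Imipramine gave 10.44 on both arrays, and duloxetine 10.41 and 10.31. Thus both arrays of 4 drugs lay above both controls, and duloxetine overlapped with control. In all, 9 of 10 drug arrays were higher than both controls, which 4% of all genes also showed. Drug by drug, both arrays lay above both controls for 22.6% of all tested genes under mirtazapine and 14.1% under amitriptyline. The shares were 17% under citalopram and 14.3% under imipramine. The difference was 0.27 ± 0.09 (SE) under mirtazapine (1.2-fold, 95% interval 0.07 to 0.46, adjusted p = 0.145) and 0.19 ± 0.09 under both amitriptyline (adjusted p = 0.878) and citalopram (adjusted p of 1). It passed under mirtazapine in 1 of 22 alternatives, where the arrays were quantile normalized again (0.35, adjusted p = 0.0409), and with arrays centred on their medians it was 0.17 (adjusted p = 0.375).

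Gria2, whose product sets calcium permeability, lay between 11.86 and 12.16 on all 12 arrays. Its group means spanned 0.18 log2 units, from 11.94 under duloxetine to 12.12 under mirtazapine. Both mirtazapine arrays (12.16 and 12.07) were above both controls (12.03 and 12.01), as was the case for 22.6% of all tested genes. The difference was 0.10 ± 0.09 (adjusted p = 0.498 in limma). Set against Gria2 on the same array, Gria1 was higher relative to the control mean by 0.04 to 0.20 on all 10 drug arrays, with the 2 control arrays at −0.05 and 0.05. The drug and control ranges of this within-array value overlapped, and it was not tested.

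Gria3 and Gria4, encoding GluA3 and GluA4, had their lowest values on mirtazapine replicate 2. For Gria3 the control arrays read 9.92 and 9.90 and the mirtazapine arrays 9.80 and 9.34, a difference of −0.34 ± 0.14 (SE, adjusted p = 0.204). Without mirtazapine replicate 1 it passed (−0.57, adjusted p = 0.0345), and without replicate 2 it was −0.11 (adjusted p = 0.848). For Gria4 the control arrays read 10.13 and 10.09 and the mirtazapine arrays 10.11 and 9.68 (difference −0.22 ± 0.15, adjusted p = 0.391). Duloxetine replicate 2 was also low for Gria4, at 9.73 against 10.13 on replicate 1. These low values lay on the arrays that stand apart. All 8 subunit genes were lower on mirtazapine replicate 2 than on replicate 1, by 0.03 to 0.46, as were 54.4% of all genes. On duloxetine replicate 2, 7 of the 8 were lower than on replicate 1, against 51.8% of all genes. Both arrays had a narrower spread of values than their replicate 1. The lower and upper quartiles were 5.57 and 8.2 against 5.48 and 8.31 for mirtazapine, and 5.5 and 8.21 against 5.37 and 8.33 for duloxetine. All 8 subunit genes lay above the array medians, whereas the shares of all genes include dim genes. These shares are thus no matched comparison, and genes of like level were not tested.

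Grin2b, encoding the GluN2B subunit of young forebrain neurons, read 10.75 and 10.74 in control and lay between 10.60 and 10.80 under the other drugs, with mirtazapine at 10.75 and 10.34. Its difference under mirtazapine was −0.20 ± 0.13 (SE, adjusted p = 0.345), and without replicate 2 it was 0.005. Grin2a, encoding GluN2A, read 8.40 and 8.37 in control and 8.43 and 8.26 under mirtazapine (−0.04 ± 0.11, adjusted p = 0.826). Its lowest group was duloxetine (8.27 and 8.09, difference −0.21 ± 0.11, adjusted p = 0.51) and its highest amitriptyline (8.42 and 8.61). The duloxetine difference was −0.115 without replicate 2, which stands apart, and −0.111 when quantile normalized again. Relative to Grin2b on the same array, Grin2a was below the control mean by 0.14 and 0.15 on the 2 duloxetine arrays. It was above it by 0.04 and 0.28 on those of mirtazapine, with the control arrays at 0.01 and −0.01. These within-array values carry no test.

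Grin2d, encoding GluN2D, had the narrowest range, 8.04 to 8.21 over all 12 arrays. Both mirtazapine arrays (8.20 and 8.17) were above both controls (8.08 and 8.11), as was the case for 22.6% of all tested genes. The mean difference was 0.09 ± 0.09 (adjusted p = 0.523 in limma). Centring each array on its median turned that difference to −0.005. Grin2b and Grin2d each had a second, dimmer probe set, which did not follow the first closely. Over the 12 arrays the pair of Grin2b correlated at r = 0.416 and that of Grin2d at r = −0.275. The second Grin2b probe set gave −0.26 under mirtazapine and −0.34 under duloxetine, and the second Grin2d probe set 0.12 under mirtazapine and 0.21 under imipramine. An array value summed over a gene does not tell splice forms or RNA editing apart.

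Amitriptyline and imipramine were given at the same concentration for the same time, and are the 1 matched pair of related compounds here. Both carry a dimethylaminopropyl-type side chain on a tricyclic core, attached through a carbon by a double bond in amitriptyline and through the ring nitrogen in imipramine. None of the 8 subunit genes was called between them in limma, 0% of all genes were, and 0 of the 8 had an unadjusted p under 0.05. For Grin3a both amitriptyline arrays (8.40 and 8.32) were below both imipramine arrays (8.62 and 8.58), a difference of −0.24 ± 0.16 (SE, 95% interval −0.61 to 0.13, adjusted p of 1). The share of all tested genes with such a position is not given for this pair. The other 7 genes had positive differences of 0.01 to 0.11. For Gria1 it was 0.11 ± 0.09, with an interval of −0.09 to 0.30.

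The subunit genes did not share 1 pattern over the arrays. Correlations are over 12 arrays and describe only these arrays, which share their groups and, for 2 of them, a common departure. Gria1 and Gria2 varied together (r = 0.802, and 0.794 without the 2 arrays that stand apart), and Gria1 varied against Grin3a (r = −0.716 and −0.876). Gria3 and Grin2b correlated at 0.890 over 12 arrays but 0.140 over 10, and Gria4 and Grin2b at 0.888 and 0.462, so these rested mainly on the 2 arrays.

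The genes most like each subunit gene differed as well. For Grin3a they were Nrp2, a semaphorin co-receptor (r = 0.979, and 0.983 over 10 arrays), Nts, encoding the peptide neurotensin (0.978 and 0.969), and Dcn, encoding the matrix proteoglycan decorin (0.977 and 0.961). For Gria1 they were Vldlr, a reelin receptor (0.943 and 0.969), the potassium channel gene Kcnk9 (0.910 and 0.930) and the ubiquitin ligase gene Ubr2 (0.910 and 0.913). Gria2 was most like Bicdl1 (0.919 and 0.847), Rbm33 (0.896 and 0.732) and Zmym6 (0.893 and 0.713), of which the last 2 dropped most. Grin2a was most like Il1rap (0.944 and 0.926), Irf9 (0.930 and 0.929) and the sodium channel gene Scn1a (0.927 and 0.852). Grin2d was most like Fbrs (0.896 and 0.903), Mss51 (0.893 and 0.922) and AU040320 (0.865 and 0.928). For Gria3 (Cobl, Cep295 and the ephrin receptor gene Epha4), Gria4 (Gnl3, Orc4 and Cab39) and Grin2b (Spag6l, Frrs1 and Alg6) the correlations dropped from at least 0.956 to between 0.496 and 0.833 without the 2 arrays. For each subunit gene these are the 3 highest correlations among the other tested genes, with predicted genes, clones and small RNAs passed over.

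Around the receptors, 100 of 109 listed genes of glutamate signalling were tested. Under mirtazapine 4 of the 100 fell and 0 rose, against 1.47% lower calls over all genes; their median difference was −0.09, and that of all genes −0.04. The counts given below for each list stand beside 22.4% of all genes at an unadjusted p under 0.05 and 55.1% of all genes with a negative difference under mirtazapine, and shares near these tell nothing of a list. With limma 0 of the 100 were called under the other 4 drugs, between the tricyclics or for the mean of the drugs. At an unadjusted p under 0.05 there were 7 for amitriptyline, 5 for citalopram, 11 for duloxetine and 4 for imipramine. The shares of all genes were close to these, at 6.14%, 4.44%, 10% and 4.56%. Between the tricyclics 0 had such a p (1.21% of all genes), and for the mean of the drugs 10 had (8.93%). Other ionotropic subunits (kainate, delta and the remaining NMDA genes) had 4 negative and 4 positive differences under mirtazapine and 0 calls by limma (median −0.07; 4 at an unadjusted p under 0.05), the lowest p belonging to the kainate receptor genes Grik3 (−0.37, adjusted p = 0.115) and Grik4 (−0.30, adjusted p = 0.15). Of 7 metabotropic receptor genes 4 were negative and 0 called (median −0.13; 2 at an unadjusted p under 0.05), with Grm3 at −0.44 (adjusted p = 0.212) and Grm4 at 0.26 (adjusted p = 0.193).

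Of 21 genes of AMPA and kainate receptor auxiliary proteins, 14 were negative under mirtazapine (median −0.16) and 1 fell: Shisa6, encoding a transmembrane protein that slows AMPA receptor desensitization. It read 9.30 and 9.08 in control and 8.60 and 8.13 under mirtazapine (−0.83 ± 0.14 SE, adjusted p = 0.0245). Of 22 clustering and trafficking genes, 17 were negative (median −0.08) and 1 fell: Nptx1, encoding a secreted pentraxin that gathers AMPA receptors at synapses. It read 8.04 and 7.81 in control and 7.30 and 7.26 under mirtazapine (−0.65 ± 0.11, adjusted p = 0.0228). The 29 postsynaptic scaffold and kinase genes had 23 negative differences (median −0.07; 5 at an unadjusted p under 0.05) and 0 calls by limma, the lowest p being that of Homer2 (−0.64, adjusted p = 0.0786) and Camk2g (−0.37, adjusted p = 0.171). The signs within these lists depended on scaling: quantile normalized again, 11 of 21, 10 of 22 and 12 of 29 were negative, and with arrays centred on their medians 19, 18 and 28.

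Of 10 genes of glutamate transport, glutamine and D-serine handling, 2 fell under mirtazapine. Slc17a7, the vesicular glutamate transporter VGLUT1 of cortical excitatory neurons, read 9.74 and 10.02 in control and 9.30 and 9.04 under mirtazapine (−0.71 ± 0.14, adjusted p = 0.0365). Glul, the glutamine synthetase of astrocytes, read 10.36 and 10.44 in control and 9.94 and 9.79 under mirtazapine (−0.54 ± 0.09, adjusted p = 0.0255). Both genes are cell type markers as well. The 3 genes of the ADAR family had positive differences under mirtazapine and 0 calls by limma (1 at an unadjusted p under 0.05): Adar, an adenosine deaminase that edits RNA, was at 0.18 (adjusted p = 0.276), and Adarb2, whose product has no known editing activity and can inhibit editing, at 0.47 (adjusted p = 0.173). Each of the 4 calls ended without control replicate 1 (adjusted p = 0.152 to 0.19) and without mirtazapine replicate 2 (adjusted p = 0.123 to 0.232). All 4 also ended without either citalopram array (adjusted p = 0.056 to 0.0771). Without control replicate 2 the calls of Shisa6, Slc17a7 and Glul ended (0.0611, 0.162 and 0.115), without either amitriptyline array those of Shisa6 (0.0512) and Glul (0.0545), and without either imipramine array those of Slc17a7 (0.0684) and Glul (0.0555). A fit to the 4 arrays of these groups alone ended all 4 (0.114 to 0.148), and array weights those of Nptx1 (0.0511), Slc17a7 (0.0928) and Glul (0.0511). Slc17a7 was also lost with no filter (0.0587) and without both arrays that stand apart (0.0945). Under imipramine the lowest p-values of these lists belonged to Glul (−0.34, adjusted p = 0.439), Nptx1 (−0.38, adjusted p = 0.448) and Slc17a7 (−0.42, adjusted p = 0.636). Also under imipramine, Grik3 was at −0.33 (adjusted p = 0.639), and Grik1, Grm2, Grm4, Cacng5, Prrt1, Lrrtm2, Dlg1, Camk2a, Adar and Adarb2 had an adjusted p of 1, with differences from −0.22 (Camk2a) to 0.35 (Adarb2).

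**Figure D3:**
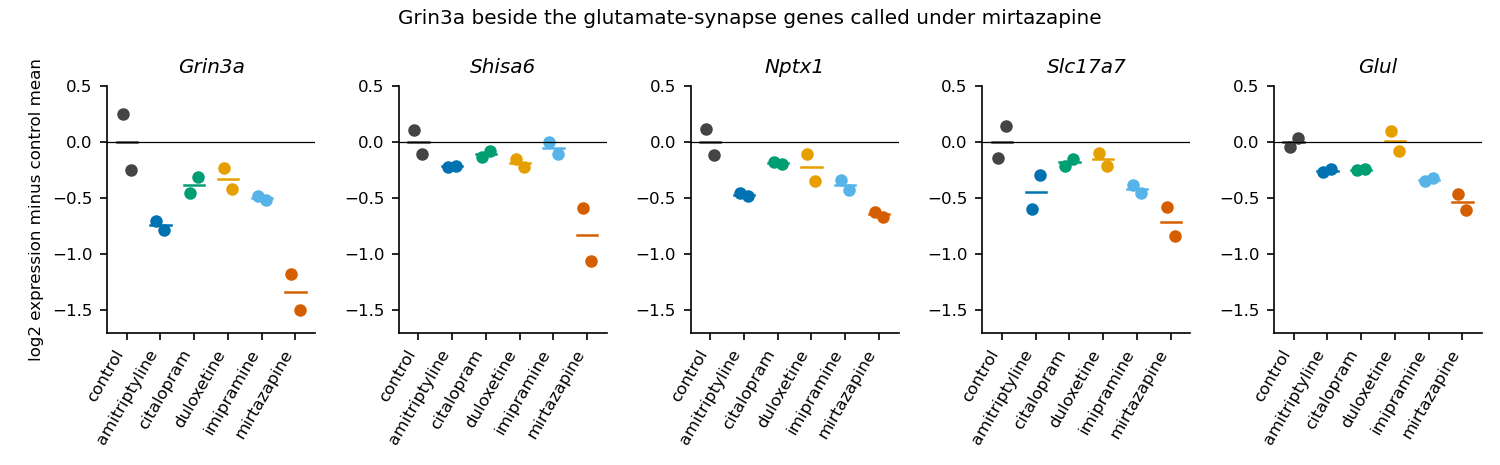
Log2 expression minus the control mean (y axis) of Grin3a and of the 4 genes of glutamate signalling called under mirtazapine, in the 6 groups (x axis). Each point is 1 array and each bar a group mean: the mirtazapine arrays are the lowest pair for Grin3a, Shisa6, Nptx1 and Glul, while amitriptyline replicate 1 (9.28) reaches the mirtazapine range for Slc17a7.

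Cell type markers also shifted under mirtazapine. Some lists shifted likewise under amitriptyline, imipramine and citalopram. Grin3a was lower there too (−0.74, −0.50 and −0.38), though neither it nor the 4 genes above were called. In bulk RNA, fewer cells of a type and less RNA per cell cannot be told apart. Excitatory neuron markers were negative for 9 of 11 under mirtazapine (median −0.29, 1 fell, which is Slc17a7), with a list mean of 9.27 to 9.43 against 9.58 to 9.67 in control. Inhibitory neuron markers were positive for 9 of 10 (median 0.35, 0 called by limma, 6 at an unadjusted p under 0.05), with a list mean of 9.44 on both arrays against 9.04 to 9.17 in control. Astrocyte markers were negative for 11 of 12 (4 fell; list mean 8.93 to 9.01 against 9.37 to 9.43), and oligodendrocyte lineage markers for 10 of 10 (1 fell; 7.81 to 7.87 against 8.02 to 8.45). Cell cycle genes were negative for 14 of 15 (9 fell; 7.66 to 7.73 against 8.28 to 8.38), and radial glia and progenitor markers for 11 of 12 (1 fell; 8.79 to 8.85 against 9.06 to 9.13).

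Pan-neuronal markers were close to control, at 11.1 on both mirtazapine arrays against 11.1 to 11.3, with 13 of 18 negative and 0 called by limma (4 at an unadjusted p under 0.05). Microglia markers were positive for 9 of 12 (0 called, 1 at an unadjusted p under 0.05; 7.14 to 7.22 against 6.96 to 7.08), and endothelial and mural markers for 7 of 11 (1 fell, Dcn; 6.99 to 7.12 against 7.10 to 7.11). Under amitriptyline, the drug with the next lowest Grin3a, the list means were 9.36 to 9.49 for excitatory, 9.22 to 9.37 for inhibitory and 8.94 to 9.05 for astrocyte markers. Oligodendrocyte lineage markers were negative for 10 of 10 under amitriptyline, citalopram and imipramine (medians −0.37, −0.30 and −0.335, against −0.30 under mirtazapine). Under duloxetine 9 of 10 were positive. Astrocyte markers were negative for 12 of 12 under both tricyclics and 4 of 12 under duloxetine. Cell cycle genes had medians of −0.565, −0.475, −0.52 and −0.18 under amitriptyline, citalopram, imipramine and duloxetine. Of the listed markers only Mag and Tek lay below the filter among those with a probe set. Under mirtazapine with arrays quantile normalized again, 3 of 10 inhibitory, 1 of 18 pan-neuronal and 1 of 12 microglia markers were called. There 9 of 18 pan-neuronal markers were negative. The part of these shifts in the lower Grin3a was not tested.

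**Figure D4:**
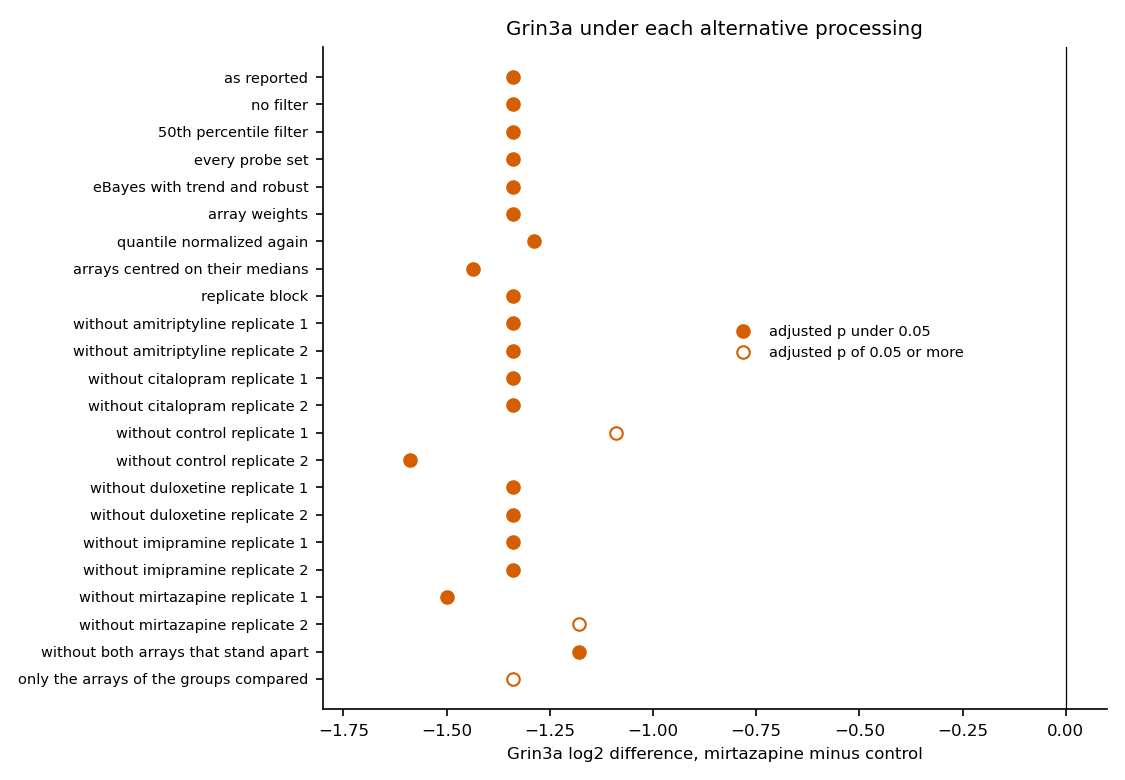
Grin3a log2 difference, mirtazapine minus control (x axis), as reported and under each alternative (y axis); filled points have an adjusted p under 0.05 and open points do not. The value stays between −1.59 and −1.09, and 19 of the 22 alternatives keep its adjusted p below the threshold. The value can move only where arrays are rescaled or a control or mirtazapine array is left out. Under the other alternatives it is unchanged by design. For each other drug, leaving out either array gives the same adjusted p. The count of 19 of 22 is therefore no measure of stability.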

How the data were processed

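RNA of each sample was hybridised to 1 array. The values are log2 expression for 41345 probe sets, which the authors made with Affymetrix Expression Console and RMA, as named in the submitters' processing notes. The software versions, the settings and the build were not given in the sources used here. Such values carry no counts; precision is limited by having 2 arrays a group. Groups and replicates come from the labels' titles. Of the probe sets, 23521 had 1 gene symbol, 1814 several and 16010 none; a gene was its probe set of highest mean, kept at or above the 30th percentile of all probe sets. All 12 arrays entered 1 linear model with a mean per group (limma 3.58.1, R 4.3.3; 6 residual and 3.86 prior degrees of freedom; tests in both directions), after a check on simulated data. Named are all subunit genes, called genes of 7 pathway lists, where a list had none its 2 lowest p under mirtazapine and under imipramine, and the 3 genes most correlated with each subunit gene. The genes and lists were chosen with earlier results of these data known. Alternatives were 22 other filters, normalizations, models and arrays left out. An exact permutation test of 2 against 2 arrays cannot go below 0.333 and was not used. Figures: matplotlib 3.10.9.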

Additional observations from a re-analysis of the deposited data

How the results depend on the processing

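Of 1224 differences of the subunit genes recomputed under 22 alternatives, 42 turned sign, and 0 of those were called. A sign could turn only where arrays were rescaled or an array of the compared groups was left out. The other alternatives leave the difference unchanged by design, so 42 of 1224 is no measure of stability. Gria4 under duloxetine went from −0.18 to 0.02 without replicate 2. Under mirtazapine Grin2a turned to 0.077 when quantile normalized again and 0.045 without both arrays that stand apart (−0.125 to 0.045 leaving out 1 array), Grin2b (−0.20) to 0.005 without both (−0.41 to 0.005 leaving out 1), and Grin2d to −0.005 with arrays centred on their medians. The cause was not tested. The count of subunit genes called under mirtazapine was 2 when quantile normalized again, where 348 of all genes were called. It was 0 with only the arrays of the groups compared, where 14 of all genes were. For the mean of the drugs and for amitriptyline it was 1 with array weights. For any difference among the groups it was 1 with the 50th percentile filter, with trend and robust eBayes and when quantile normalized again. Calls over all genes in these settings are given here only for mirtazapine, so the other counts tell nothing of the subunit genes as a group. Calls over all genes under mirtazapine (304) ranged from 0 without control replicate 1 to 1450 without mirtazapine replicate 1; they were 191 with no filter, 440 and 441 with the higher filter and the robust fit, and 110 with array weights.

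Whether replicate numbers pair the arrays is not told by the labels and was not settled here. Replicate differences correlated from −0.438 to 0.712 between groups, over 0.1 for 4 of 15 pairs. The highest was duloxetine with mirtazapine, whose replicates 2 both stand apart. The others over 0.1 were among amitriptyline, citalopram and imipramine (0.125 to 0.196). With the replicate block 1 subunit gene was called under mirtazapine (Grin3a, −1.34, adjusted p = 0.0113) and 234 genes in all, and Slc17a7 was at an adjusted p of 0.0567. The lone array of a group was assumed to vary like the others. The within-array values of subunit pairs were also quantile normalized again, a choice made after seeing the data, and moved by less than the spread between replicates pooled over the 6 groups. For duloxetine, Grin2a minus Grin2b went from −0.145 to −0.108, which is more than its own 2 arrays differ.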
